A study of Mus musculus with 23 samples.

Results

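A set of 10 genes of the melanocyte were followed through whole tumors and sorted cancer-associated fibroblasts (CAFs) of transplantable mouse tumor models. They are *Tyr*, *Tyrp1* and *Dct*, which encode the enzymes of melanin synthesis, *Pmel*, *Mlana*, *Gpr143*, *Slc45a2* and *Oca2*, which encode proteins of the melanosome, and *Mitf* and *Sox10*, which encode transcription factors. The 10 symbols were chosen by name, with earlier results of these data known. The transcript of largest mean stood for each symbol, and all 10 were found among the 24940 gene symbols of both tables. RNA was sequenced from 15 tumor fragments, 3 each of B16 (melanoma line B16-F10), EO771 (breast carcinoma line EO771.LMB), LL2 (lung carcinoma), MC38 (colon carcinoma) and Pan02 (pancreatic ductal carcinoma), to compare the microenvironments of these models. In addition, 8 libraries were made from CAFs, 2 each of EO771, LL2, MC38 and Pan02, which were depleted of CD45+ leukocytes and sorted for fibroblast activation protein (FAP) in 2 separate rounds. CAFs of B16 and all samples of CT26 were not analysed here. Every model is 1 cultured cell line derived from C57BL/6 mice, and 500000 cells were placed under the flank skin of adult female C57BL/6 mice. The host skin therefore carries the melanocytes and pigment of that strain, and a tumor fragment holds cancer cells together with host cells. The labels do not state that the tumors came from separate mice, so the p-values measure the spread between these samples.

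Melanin is made in melanosomes, organelles related to lysosomes that melanocytes hand on to keratinocytes. Tyrosinase, the product of *Tyr*, carries out the rate-limiting oxidation of tyrosine, and the related proteins encoded by *Tyrp1* and *Dct* act later in eumelanin synthesis. *Mitf* is the master regulator of the lineage. Its protein binds E-box sequences of the form CATGTG in the promoters of the pigment genes, and *Sox10*, a factor of the neural crest, acts upstream of it and beside it. B16 is a pigmented mouse melanoma line of long use.

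The promoters of the 3 enzyme genes carry the CATGTG element in full, which is why they are shown here. They are the 250 bases before the start site in RefSeq on build GRCm38.p6, read 5′ to 3′ along the gene, with CATGTG or its reverse form CACATG in capitals. The *Tyr* segment is chr7:87493513-87493762 on the minus strand, the *Tyrp1* segment is chr4:80833963-80834212 on the plus strand, and the *Dct* segment is chr14:118052247-118052496 on the minus strand.
Tyr: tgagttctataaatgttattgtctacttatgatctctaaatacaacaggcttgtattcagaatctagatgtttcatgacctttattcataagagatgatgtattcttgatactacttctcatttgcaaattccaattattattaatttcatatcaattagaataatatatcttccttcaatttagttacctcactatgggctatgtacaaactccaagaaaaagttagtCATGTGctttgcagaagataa
Tyrp1: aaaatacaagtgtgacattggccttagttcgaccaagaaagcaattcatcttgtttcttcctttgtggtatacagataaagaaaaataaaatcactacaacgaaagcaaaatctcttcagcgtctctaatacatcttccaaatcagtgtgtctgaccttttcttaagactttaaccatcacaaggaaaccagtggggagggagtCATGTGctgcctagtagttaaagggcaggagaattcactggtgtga
Dct: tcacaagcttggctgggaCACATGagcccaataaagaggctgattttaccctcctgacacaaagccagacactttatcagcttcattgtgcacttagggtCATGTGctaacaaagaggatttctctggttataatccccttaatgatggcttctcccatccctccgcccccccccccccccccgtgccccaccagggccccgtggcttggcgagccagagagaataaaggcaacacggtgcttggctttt

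Windows of 300 bases around the start site were given for 5 of the 10 members, *Tyr*, *Tyrp1*, *Dct*, *Oca2* and *Mitf*, the last with 3 start sites, and both strands were searched. The longer form TCATGTG, whose letters contain CATGTG, began 22 bases before the start site of *Tyr*, 47 before that of *Tyrp1* and 151 before that of *Dct*. *Dct* held it a second time, on the opposite strand, with its leftmost base at position -232. The *Oca2* window held the 6-base form only, and neither form was found in the 3 *Mitf* windows. Among all 32851 windows of the same length, CATGTG was present in 14.2% and TCATGTG in 3.77%. The E-box CACGTG, present in 7.15% of all windows, was in none of the 7 windows of the members. Of the SOX core forms, ACAATG (12.6% of all windows) was found in *Dct* alone, and ACAAAG (18.7%) in *Tyrp1*, *Oca2* and *Dct*. These are matches of letters and not measured binding sites.

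The sum of counts per tumor ranged from 10035173 to 21946486, and the depth recovered for the CAF libraries ranged from 9247000 to 22826000 reads. Of the 24940 symbols, 15722 passed the filter on low counts in tumors, all 10 members among them, and 13598 passed the filter in CAFs, of which *Mitf* was the only member. Gene levels in tumors are given as CPM, the count scaled to a common library size by TMM, and as RPKM, which is CPM per kilobase of transcript, wherever genes are compared with each other.

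The enzyme genes were high in B16 tumors and low, though counted in every tumor, in the other models. *Tyr* (NM_011661, 5 exons in GENCODE, chr7:87424771-87493512, minus strand) was at 929, 969 and 696 CPM in the 3 B16 tumors and between 0.205 and 0.894 CPM, with a median of 0.503, in the 12 others. *Tyrp1* (NM_031202, 8 exons, chr4:80834213-80851736, plus strand) was at 6182, 5901 and 5202 CPM in B16, and the others ran from 1.39 through a median of 3.12 to 6.99 CPM. *Dct* (NM_010024, 8 exons, chr14:118012790-118052246, minus strand), which encodes dopachrome tautomerase, was at 7746, 8857 and 7128 CPM in B16 against 2.91 to 10.1 CPM, median 4.31, elsewhere. The 3 B16 tumors lay above the 12 others for each of these genes and for each of the other 7 members, as they did for 14.5% of all tested genes. The log2 fold change of B16 against the mean of the other 4 models was 10.62 ± 0.19 (SE) for *Tyr*, 10.69 ± 0.32 for *Tyrp1* and 10.56 ± 0.29 for *Dct*, with adjusted p-values of 9.9e-14, 8.2e-12 and 4.5e-12 (edgeR quasi-likelihood test, Benjamini-Hochberg). All 10 members passed this test with a log2 fold change of at least 1, as did 13.1% of all tested genes in that direction. All 10 also differed in the test over the 5 models, which 91.1% of all tested genes passed. In these fragments, more cells of a type and more RNA per cell cannot be told apart.

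Genes of the melanosome followed the enzymes. *Pmel* (NM_021882, 11 exons, chr10:128706258-128720238, plus strand) encodes the protein of the fibrils on which melanin is laid down. It was at 7317, 9574 and 7036 CPM in B16, and at 3.53 to 11.8 CPM, median 5.40, in the others. *Mlana* (NM_029993, 5 exons, chr19:29697941-29708306, plus strand), the Melan-A antigen of melanoma, was at 655, 831 and 842 CPM in B16 and reached at most 1.17 CPM elsewhere. Neither gene overlapped between B16 and the rest, with log2 fold changes of 10.35 ± 0.28 for *Pmel* and 10.37 ± 0.21 for *Mlana* (adjusted p = 3.8e-12 and 1.6e-13, edgeR). Of the exon bases of *Pmel*, 4.93% are shared with *Dgka* in the annotation. Reads of both strands were counted together, so reads there may belong to either gene.

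*Slc45a2* (NM_053077, 7 exons, chr15:11000721-11029233, plus strand) and *Oca2* (NM_021879, 24 exons, chr7:56239771-56536517, plus strand) encode membrane transporters that set the pH of the melanosome. *Slc45a2* was at 1435, 1508 and 1299 CPM in the B16 tumors and at 0.477 to 1.92 CPM elsewhere, a log2 fold change of 10.60 ± 0.22 (adjusted p = 1.8e-13, edgeR). *Oca2* was at 132, 158 and 86.7 CPM in B16, whereas the 12 other tumors together held 15 counts of it and 5 of them held none. *Gpr143* (NM_010951, 9 exons, chrX:152781921-152808646, plus strand), which encodes a receptor of the melanosome membrane, was at 58.9, 66.3 and 59.1 CPM in B16 and was covered by 8 counts in the 12 others, of which 6 had none. For these sparse genes the fitted fold change depends on the prior count. The B16 mean was 1668 times the pooled level of the 12 others for *Oca2* (95% exact Poisson interval 1012 to 2981) and 1532 times for *Gpr143* (778 to 3549.6), and the intervals cover counting error only. In Pan02 tumors *Gpr143* was at 0 counts in 3 of 3, so that with 3 counts over the group B16 was at least 1064-fold higher.

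The regulators were also higher in B16. *Sox10* (NM_011437, 4 exons, chr15:79154913-79164490, minus strand) was at 1137, 1349 and 1123 CPM in B16 and at 0.509 to 4.89 CPM, median 0.962, in the others, a log2 fold change of 9.80 ± 0.23 (adjusted p = 7.6e-13, edgeR). *Mitf* (NM_008601, 9 exons, chr6:97991783-98021358, plus strand) was at 1019, 735 and 566 CPM in B16. In the 12 other tumors it was at 7.27 to 31.4 CPM, with a median of 15.4. Its log2 fold change was 5.49 ± 0.21 (adjusted p = 9.4e-11, edgeR), the smallest of the 10, and no other member exceeded 11.8 CPM in a tumor other than B16. The median log2 fold change of the members was 10.58, or 10.45 with *Gpr143* and *Oca2* set to the limit of 3 counts per group, beside -0.03 over all tested genes. A log2 fold change of at least 9 was reached by 30 of the 15722 genes (0.191%), and 9 of the members were among them.

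**Figure D1:**
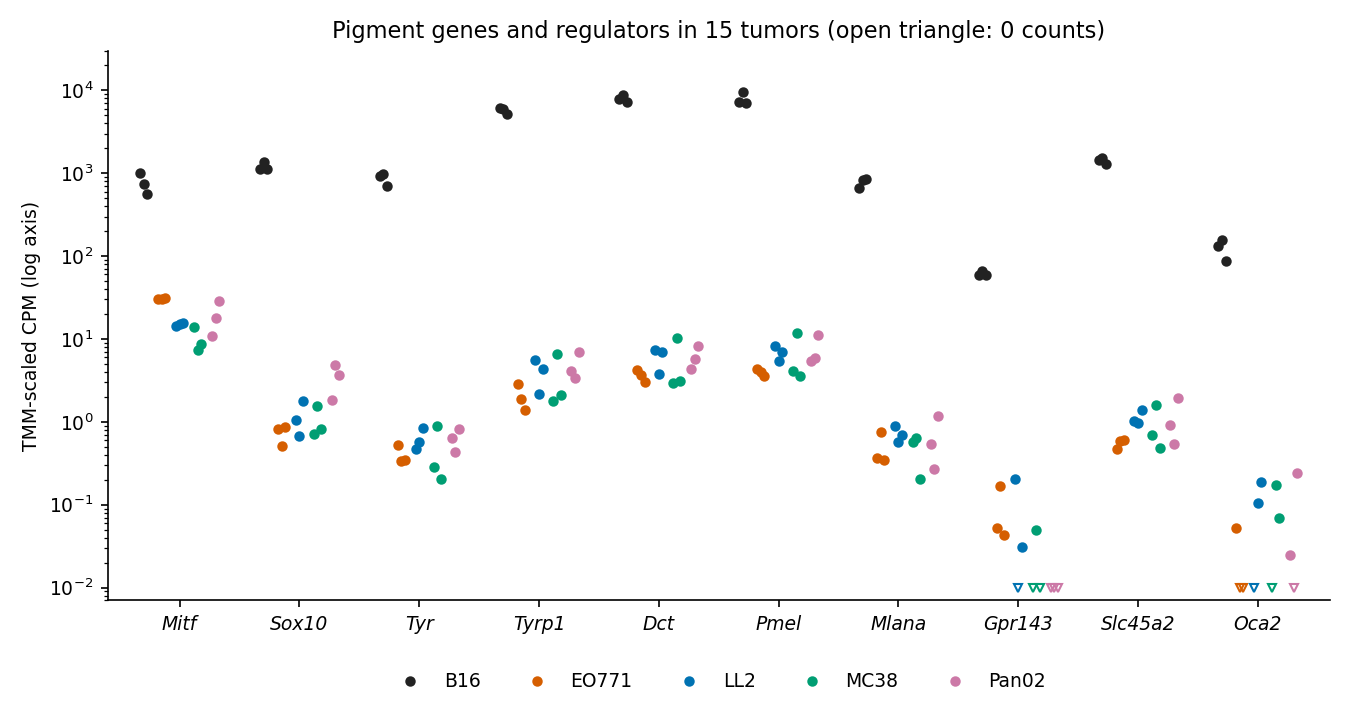
TMM-scaled CPM (log axis) of the 10 genes in each of the 15 tumors, coloured by model, with open triangles at the bottom for tumors with 0 counts. The 3 B16 tumors lie far above the 12 others for every gene, and *Mitf* has the smallest gap, with 7.27 to 31.4 CPM outside B16.

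Per unit of length, the members differed widely within B16 tumors. *Pmel* (3767 ± 657 RPKM, SD, n = 3) and *Dct* (3511 ± 389) ranked 1 and 2 among all 24940 symbols, and their ranges overlapped. *Tyrp1* followed with 2099 ± 184 RPKM at rank 8 and *Mlana* with 1709 ± 231 at rank 17, each separated from its neighbours. *Slc45a2* (475 ± 35.6) and *Sox10* (444 ± 46.7) overlapped, as did *Mitf* (169 ± 50.1) and *Tyr* (143 ± 24.4). *Oca2* (40.6 ± 11.6) and *Gpr143* (37.5 ± 2.56) were lowest and could not be ordered beyond their spread. The gene of the rate-limiting enzyme thus lay at place 8 of 10 per unit of length, at a level that did not differ from that of *Mitf* beyond the SD. This order depends on the transcript lengths used, such as 6035 bases for *Tyr* and 454 for *Mlana*. By CPM, *Tyr* ranked 91 among all symbols, above *Mlana* (108) and *Mitf* (110). Together the 10 genes took 2.70%, 2.91% and 2.38% of all counts in the 3 B16 tumors, and between 0.00208% and 0.00599% in the 12 others.

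**Figure D2:**
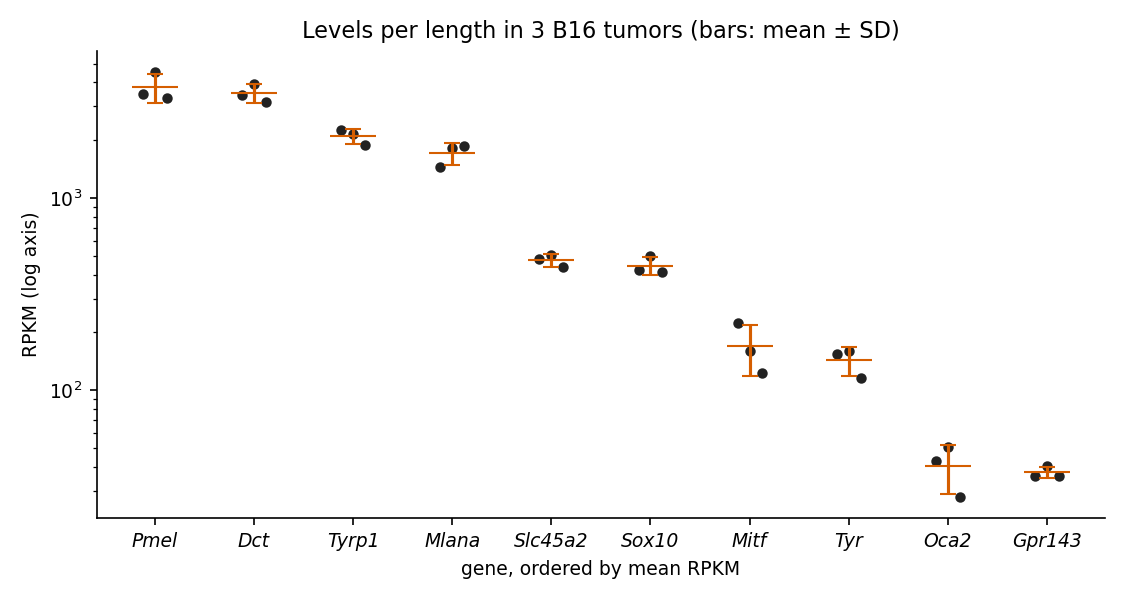
RPKM (log axis) of the 10 genes in the 3 B16 tumors (points), with the mean and SD as bars. *Pmel* and *Dct* lead at 3767 and 3511 RPKM, and *Oca2* and *Gpr143* close the order at 40.6 and 37.5 RPKM.

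The B16 tumors did not rank alike for all genes. Replicate 3 had the lowest level of the 3 for *Tyr*, *Tyrp1*, *Dct*, *Pmel*, *Slc45a2*, *Oca2*, *Sox10* and *Mitf*, and the highest for *Mlana*. The coefficient of variation over the 3 tumors was largest for *Mitf* (29.6%) and *Oca2* (28.6%) and smallest for *Gpr143* (6.83%).

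The balance of *Mitf* transcript counts also set B16 apart. The melanocyte form of the factor begins at the promoter nearest to the shared 3′ exons, and longer forms of other tissues begin upstream. Counts were made per transcript, the transcripts share exons, and start sites were not measured. The short transcript NM_008601 (chr6:97991783-98021358) had 1.043, 1.035 and 1.033 times the count of the long transcript NM_001113198 (chr6:97807058-98021358) in the 3 B16 tumors. In the 12 other tumors the ratio was 0.839 to 0.937, and in the 8 CAF libraries it was 0.812 to 0.945. All B16 tumors were above 1, and all of the other 20 libraries were below it. The log2 ratio was higher by 0.21 in B16 tumors than in the 12 others (2-sided exact permutation test, p = 0.0044, the smallest that 3 tumors against 12 can give). This comparison was chosen after the counts of the transcripts had been seen.

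**Figure D3:**
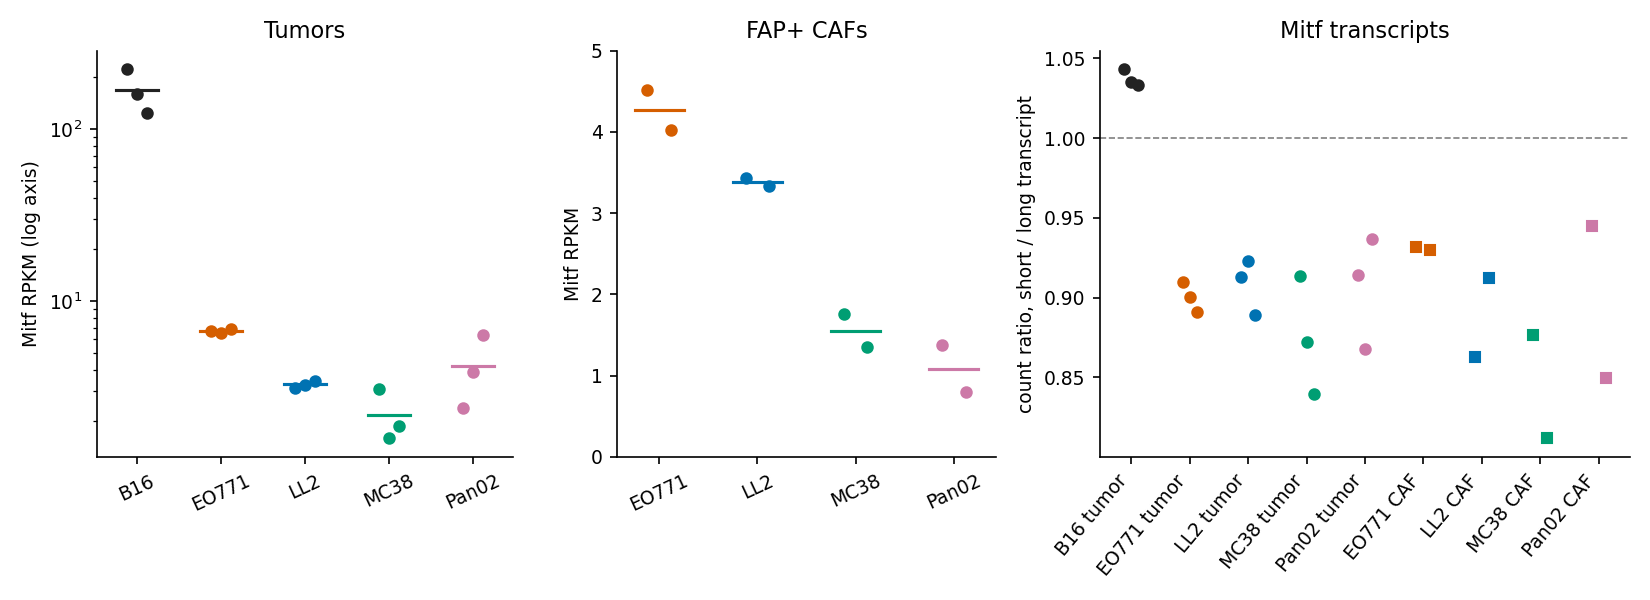
*Mitf* in RPKM per tumor (left, log axis) and per CAF library (middle), with lines at the mean of each model, and the ratio of the counts of its short and long transcript (right). Tumors and CAFs were normalized separately, and the dashed line marks a ratio of 1, above which only the 3 B16 tumors lie.

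Low levels of the pigment genes were counted in every tumor of the other models, and they varied between tumors. For *Tyr*, *Tyrp1*, *Dct*, *Pmel*, *Mlana* and *Slc45a2*, the level in each of the 12 tumors was expressed as a percent of the B16 mean; these 6 genes were grouped after their values had been seen. The median over the 6 genes was highest in Pan02 replicate 3 (0.129%), MC38 replicate 2 (0.113%) and LL2 replicate 1 (0.0950%), and lowest in MC38 replicate 3 (0.0351%). Within Pan02 replicate 3 the 6 genes lay between 0.0937% and 0.151%, and within MC38 replicate 3 between 0.0238% and 0.0442%. The spread was wider in EO771 replicate 2, from 0.0332% to 0.0985%, and in MC38 replicate 1, from 0.0309% to 0.0745%. The levels of these 6 genes in B16 run from 143 to 3767 RPKM. Tumors of 1 model differed as much as models did, since MC38 held both the second highest and the lowest median. Of the 2481 genes with at least 100 CPM in B16, between 0 and 3 per tumor fell below 0.5 times that median. Between 12 and 21 per tumor fell below 2 times the median, a count that can include these 6 genes. The ratio of *Pmel* to *Dct* counts was 0.945 to 1.08 in B16 and 1.02 to 1.42 in the 12 others. The origin of these low counts was not tested.

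*Sox10* in Pan02 and *Mitf* in all 12 tumors lay above the median of these 6 genes. *Sox10* was at 0.407%, 0.309% and 0.154% of the B16 mean in Pan02 replicates 2, 3 and 1, above the median of the 6 genes in each. *Mitf* was at 0.941% to 4.06% of its B16 mean in the 12 tumors, and its order differed, with EO771 replicate 3 highest and MC38 replicate 2 lowest.

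**Figure D4:**
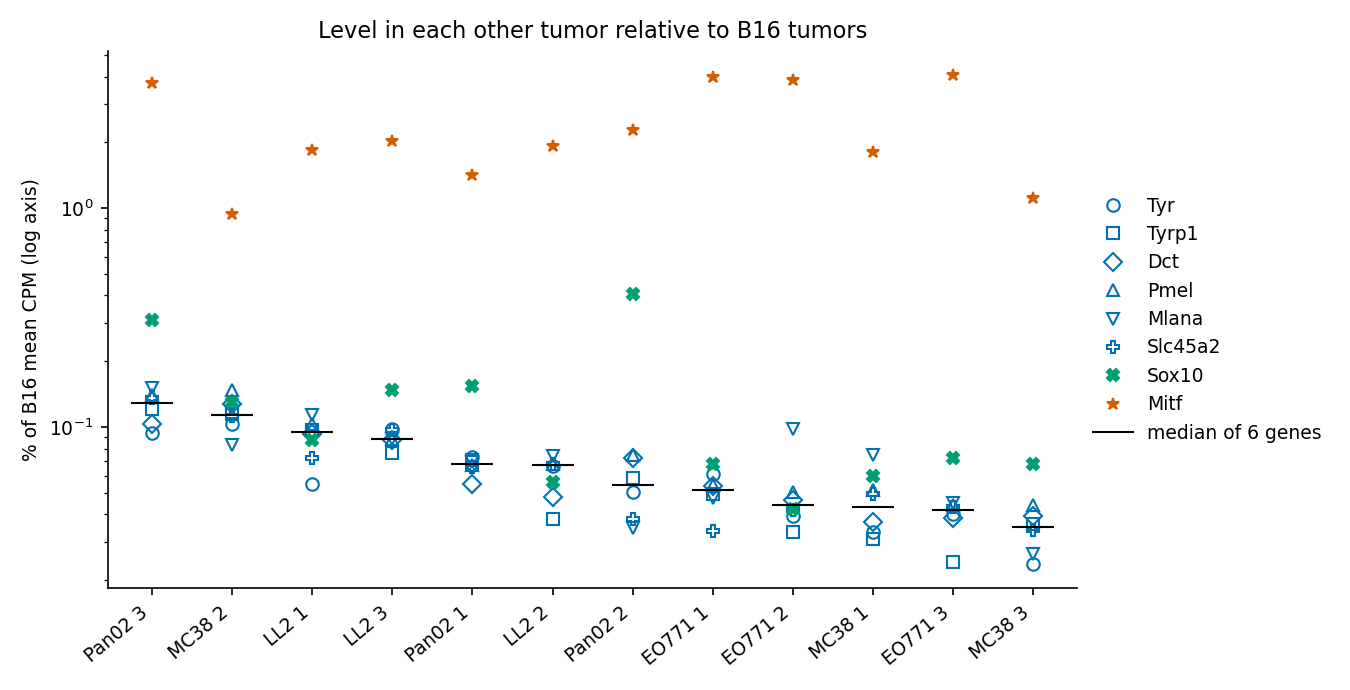
Level of 8 genes in each tumor of the other models as a percent (log axis) of the B16 mean, with tumors ordered by the median of 6 pigment genes (black dash). The 6 pigment genes cluster between 0.0238% and 0.151%, *Sox10* rises above them in Pan02, and *Mitf* lies between 0.941% and 4.06%.

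Among the 4 models other than B16, only *Mitf* and *Sox10* passed the test (edgeR quasi-likelihood test within the fit of 15 tumors). This was 2 of 10 members, where 83.0% of all tested genes passed. *Gpr143* and *Oca2* passed the filter on low counts through B16, with 8 and 15 counts in these 12 tumors. In the fit without B16, 8 members were tested and 2 passed. *Mitf* was at 30.7, 29.9 and 31.4 CPM in EO771 tumors and at 14.3, 14.9 and 15.8 CPM in LL2. It was at 14.0, 7.27 and 8.59 CPM in MC38 and at 10.9, 17.7 and 29.0 CPM in Pan02. EO771 tumors lay above all others, although Pan02 replicate 3 came close, and MC38 lay below LL2 without overlap but overlapped Pan02. Against the mean of the other 3 of these models, *Mitf* was higher in EO771 by 1.11 ± 0.24 on the log2 scale (adjusted p = 0.0018) and lower in MC38, with a log2 fold change of -1.05 ± 0.27 (adjusted p = 0.006, edgeR for both). At this threshold 26.4% of all tested genes were higher in EO771 and 25.2% were lower in MC38. The 10 macrophage markers, of cells that also use *Mitf*, summed to 1752 to 1962 CPM in EO771, 1393 to 2617 in LL2, 1238 to 2133 in MC38 and 1421 to 5948 in Pan02, so that EO771 overlapped each of the others. Their part in the level of *Mitf* was not tested.

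*Sox10* was at 1.86, 4.89 and 3.72 CPM in Pan02 tumors, all above the highest value of the other 9, which was 1.78 CPM in LL2 replicate 3. Its log2 fold change in Pan02 was 1.81 ± 0.30 (adjusted p = 2e-04, edgeR), and 32.2% of all tested genes were higher there. It was at 0.821, 0.509 and 0.871 CPM in EO771, with a log2 fold change of -1.10 ± 0.41 (adjusted p = 0.036, edgeR), where 27.1% of all tested genes were lower. The adjusted p of this last value ranged from 0.051 to 0.13 without EO771 replicate 1, 2 or 3, LL2 replicate 3, MC38 replicate 2 or Pan02 replicate 3, or with B16 left out of the fit. Among these 4 models, the summed markers of Schwann cells, another cell of the neural crest that uses *Sox10*, were also highest in Pan02. The 10 Schwann markers summed to 109 to 274 CPM in Pan02, 34.5 to 40.9 in EO771, 78.5 to 106 in LL2 and 44.7 to 78.6 in MC38. None of the 10 was at 0 throughout Pan02, and B16 had sums of 217 to 286 CPM. *Pmp22* (74.6 CPM) and *Egr2* (56.5 CPM) were the largest parts in Pan02. *Pou3f1* went the other way, with 2.41 CPM in MC38 and 0.573 CPM in Pan02, and was the only marker of the list to do so. Their part in the level of *Sox10* was not tested.

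The pigment genes proper did not pass, with adjusted p-values from 0.063 (*Gpr143*) to 0.66 (*Oca2*). The count rested on 1 library. Without MC38 replicate 2, the tumor with the second highest low-level signal, 7 of 10 members differed among the 4 models (79.7% of all tested genes). *Tyr*, *Tyrp1*, *Dct*, *Pmel* and *Gpr143* were added, the last on few counts (8 over all 12 tumors). *Tyrp1* was then higher in Pan02 by 0.92 on the log2 scale (adjusted p = 0.014) and *Pmel* by 0.66 (adjusted p = 0.021, edgeR), where 57.5% of all tested genes were called in either direction. With DESeq2 and all 15 tumors, *Tyrp1*, *Pmel* and *Slc45a2* were lower in EO771, with log2 fold changes of -0.95, -0.78 and -0.95 and adjusted p-values of 0.025, 0.03 and 0.031, where 54.7% of all tested genes were called.

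In sorted FAP+ CAFs, *Mitf* was the only member that passed the filter of at least 1 RPKM in 2 libraries. Deposited RPKM values of *Mitf* were 4.52 and 4.03 in the 2 libraries of EO771, 3.43 and 3.33 in LL2, 1.76 and 1.35 in MC38, and 1.37 and 0.796 in Pan02. EO771 lay above LL2, and LL2 above MC38 and Pan02, which overlapped with each other. *Mitf* differed among the 4 models (limma on log2(RPKM + 1), adjusted p = 0.00088), as did 80.4% of all tested genes. Against the other 3 models, the log2 difference was 0.89 ± 0.14 in EO771 (adjusted p = 0.002) and 0.53 ± 0.14 in LL2 (adjusted p = 0.027), where 24.5% and 14.7% of all tested genes were higher. It was -0.51 ± 0.14 in MC38 (adjusted p = 0.018) and -0.91 ± 0.14 in Pan02 (adjusted p = 0.0016, limma), where 31.3% and 26.5% were lower. The calls for LL2 and MC38 did not hold throughout. The adjusted p for LL2 was 0.06 to 0.16 without a library of EO771 or of LL2 and 0.067 with no filter on low values, and that for MC38 was 0.087 without MC38 library 2. The CAF values are of the long transcript NM_001113198 and were normalized apart from the tumors.

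Macrophages and osteoclasts also use *Mitf*, and their markers differed between the sorted libraries. The 10 macrophage markers summed to 243 to 266 RPKM in EO771 CAFs and to 32.4 to 107 RPKM in the other 6 libraries, with none at 0 in a model. *Csf1r*, the receptor for macrophage colony-stimulating factor, was at 5.44 and 5.15 RPKM in EO771 CAFs and at most 1.14 RPKM elsewhere. *Tfec*, a factor of the *Mitf* family found in macrophages, was at or below 0.41 RPKM in all 8 libraries. Epithelial markers followed another order, with sums of 841 to 1125 RPKM in Pan02, 494 to 501 in EO771, 206 to 211 in LL2 and 2.08 to 4.49 in MC38. The part of these cells in the level of *Mitf* was not tested. *Fap* itself, the gene of the sorting marker, was at 1.89 to 11.4 RPKM in the 8 libraries.

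The other 9 members were below that level in CAFs, and 7 of them had few or no reads. *Dct* had 0 reads in all 8 libraries, which allows at most 0.0583 RPKM in the deepest and 0.144 RPKM in the shallowest library (3 reads). *Tyr* and *Tyrp1* had at most 1 read in any library, as had *Slc45a2*, while *Gpr143* had at most 5 and *Oca2* at most 3.5. *Mlana* had 2.5 and 2 reads in the 2 MC38 libraries and 0 in the other 6. *Pmel* was counted in all 8, at 0.331 to 1.25 RPKM from 14.5 to 30.5 reads, and *Sox10* in all 8 at 0.107 to 0.906 RPKM from 6 to 55.5 reads. *Pmel* therefore had 197.5 reads in CAFs where *Dct* had 0, whereas their ratio did not exceed 1.42 in any tumor. The 4.93% of *Pmel* exon bases shared with *Dgka* apply here too, and the part of *Dgka* in these reads was not tested. With no filter on low values, 3 members differed among the CAF models, *Mitf*, *Pmel* (adjusted p = 0.039) and *Mlana* (adjusted p = 0.00022, limma), the last from the few reads just given, where 49.5% of all tested genes passed.

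Signals and regulators beside *Mitf* were mixed. Of 20 such genes, 16 were tested, 6 were higher and 5 lower in B16, and 32.7% of all tested genes were called in either direction. Their median log2 fold change was 0.08, beside -0.03 over all genes. *Mc1r*, the receptor for the melanocyte-stimulating hormone, was at 368, 478 and 415 CPM in B16 and at 1.69 CPM or less elsewhere (log2 fold change 9.27 ± 0.14, adjusted p = 1.2e-14, edgeR). *Pax3*, a neural crest factor upstream of *Mitf*, rose by 7.02 ± 0.15 on the same scale (adjusted p = 4e-13), although MC38 had 16.3 to 22.3 CPM. *Kit*, the receptor for stem cell factor, was higher by 1.94 ± 0.23, and the factor *Tfap2a* was at 89.9, 99.3 and 95.7 CPM in B16 against 17.5 to 45.5 CPM elsewhere. *Kitl*, the ligand of *Kit*, was lower by -3.89 ± 0.23 and *Sox9* by -3.27 ± 0.38 (adjusted p = 7.8e-09 and 5.5e-06, edgeR). Agouti signaling protein, the antagonist of *Mc1r*, is listed under the symbol *a* and had 0 counts in the 3 B16 tumors and at most 0.690 CPM elsewhere. The ligand *Edn3* was also at 0 in B16, but was at most 0.270 CPM in any tumor and at 0 in several of the others. Neither gene was tested. The endothelin receptor *Ednrb* had a log2 fold change of -0.41 ± 0.34 and did not pass.

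The relatives of *Mitf* differed in direction. *Tfeb*, a regulator of lysosomal genes, was higher in B16 by 1.78 ± 0.15 (adjusted p = 3.1e-07), *Tfec* was lower with -2.20 ± 0.60 (adjusted p = 0.0058), and *Tfe3* had -0.14 ± 0.08 (adjusted p = 0.15, edgeR).

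Genes of melanosome biogenesis and transport were higher more often than they were lower. Of 30 tested, 14 were higher, 2 were lower and 14 were not called, with a median log2 fold change of 0.87, where 13.1% of all tested genes were higher and 19.6% lower. *Trpm1*, a cation channel of melanocytes, was at 934, 1057 and 694 CPM in B16 and at 1.49 CPM or less elsewhere, a log2 fold change of 10.56 ± 0.28. The small GTPase *Rab38*, which sorts the enzymes to melanosomes, had 8.77 ± 0.13, and *Gpnmb*, a relative of *Pmel*, had 6.55 ± 0.20. *Mlph* and *Rab27a*, which tie melanosomes to the motor *Myo5a*, had 6.24 ± 0.21 and 5.93 ± 0.21, and the exchanger *Slc24a5* had 5.44 ± 0.11 (all adjusted p at or below 5.6e-11, edgeR). Unlike the enzymes, *Gpnmb* and *Slc24a5* were also present outside B16, *Gpnmb* at 205 to 221 CPM in MC38 and *Slc24a5* at 12.9 to 31.5 CPM in the 12 other tumors. Lower genes were the endolysosomal channel *Tpcn2* (-1.07 ± 0.13) and the cystine transporter *Slc7a11* (-1.07 ± 0.42).

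Of 9 tested targets of *Mitf* outside pigmentation, 4 were higher and 1 was lower, beside the same 13.1% and 19.6% of all tested genes. *Ppargc1a*, a coactivator of mitochondrial genes, had a log2 fold change of 6.85 ± 0.45, *Tbx2* 5.16 ± 0.31, the receptor *Met* 4.59 ± 0.22 and *Cdk2* 3.84 ± 0.07. *Tbx2* was also at 86.5 to 192 CPM in Pan02, beside a mean of 416 CPM in B16. The tumor suppressor *Cdkn2a* had -2.58 ± 0.40 (adjusted p = 7.1e-05, edgeR). Its mean was 0.271 CPM in B16, 0.733 in EO771 and 0.546 in LL2, and 6.98 in MC38 and 4.11 in Pan02. Of 9 tested genes of the neural crest and melanoma, 4 were higher, among them *S100b* (8.48 ± 0.38) and *Erbb3* (3.46 ± 0.15), and *Ngfr* (-3.07 ± 1.05) and *Nes* (-2.05 ± 0.16) were lower. Of 9 tested Schwann markers, 4 were higher, among them *Cdh19* (8.33 ± 0.27), *Pou3f1* (3.74 ± 0.35) and *Mbp* (3.45 ± 0.25), and *Prx* and *Egr2* were lower. Lists of markers chosen for melanocyte-related lineages thus held genes that moved in both directions.

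**Figure D5:**
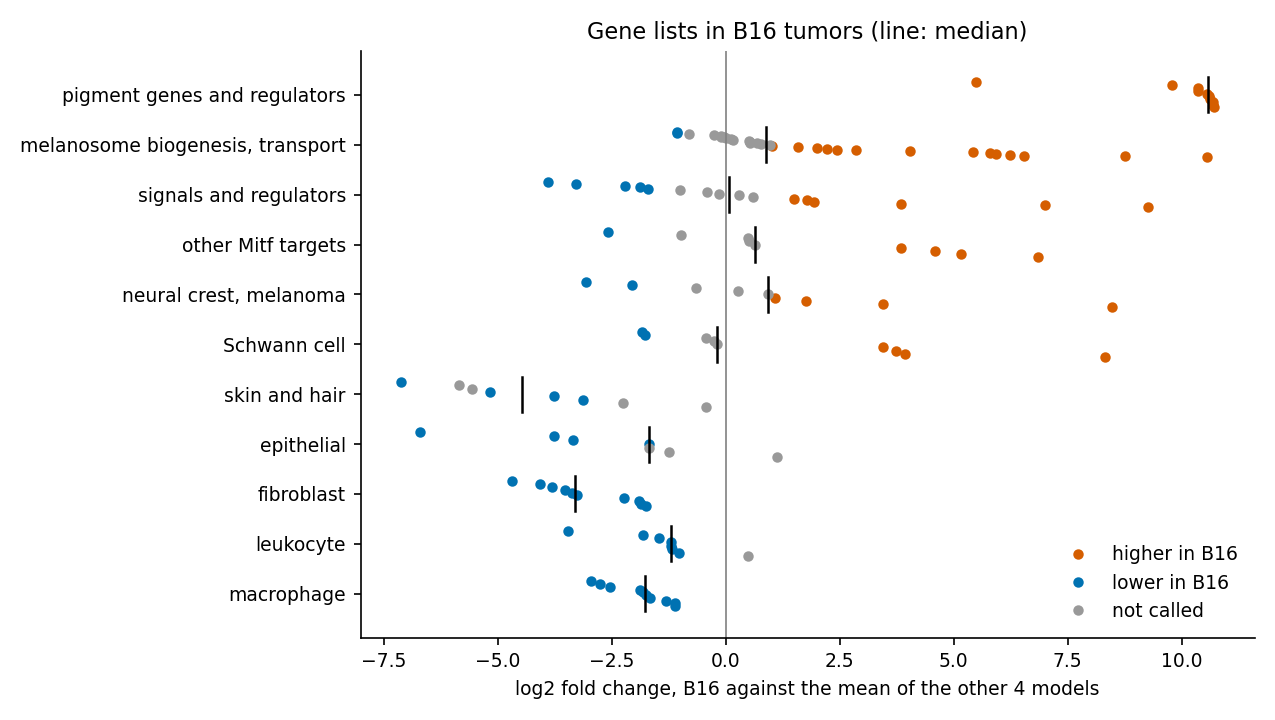
Log2 fold change of B16 against the mean of the other 4 models for every tested gene of 11 lists (points, coloured by whether they were called higher, lower or neither), with the median of each list as a line. The 10 pigment genes and regulators have a median of 10.58, and all 10 macrophage and 10 fibroblast markers are lower in B16.

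Markers of other cell types were lower in B16, or not called. In B16, 10 of 10 macrophage, 10 of 10 fibroblast, 7 of 8 tested leukocyte, 4 of 7 tested epithelial and 4 of 8 tested skin and hair markers were lower, and none was higher, where 19.6% of all tested genes were lower. Summed epithelial markers were also low in MC38 and higher in the other carcinomas. The sums were 7.86 to 13.0 CPM in B16 and 9.38 to 62.6 in MC38. They were 470 to 739 in LL2, 1207 to 1270 in EO771 and 2122 to 3352 in Pan02. Most of the sum was *Krt8* (1228 CPM) in EO771, where *Krt18* was at 2.91 and *Cdh1* at 5.16 CPM. In LL2 it was *Krt18* (341 CPM) and *Krt8* (233 CPM), with *Cdh1* at 4.33 CPM. *Cdh1* was at 176 CPM in Pan02. Fibroblast markers summed to 418 to 1669 CPM in B16 and to 2872 to 49234 CPM in the 12 others, and macrophage markers to 450 to 758 against 1238 to 5948 CPM. Skin and hair markers summed to 1.57 to 2.39 CPM in B16 and to 9.95 to 254 CPM in the others. *Sbsn* (147 CPM) and *Krt17* (68.7 CPM) made up most of that sum in EO771, and *Trp63* (31.1 CPM) was the largest part in Pan02. In LL2 the sums ran from 13.2 to 150 CPM and rested on single tumors. LL2 replicate 3 had *Krt5* at 48.3, *Krt14* at 33.4, *Krt17* at 29.9 and *Krt15* at 21.8 CPM. Each of these was at 1.09 CPM or less in LL2 replicates 1 and 2. The hair keratins *Krt71* (14.2 CPM) and *Krt25* (6.05 CPM) were highest in LL2 replicate 1. The part of skin cells in the levels of the pigment genes was not tested. The share of cancer cells in each fragment was not measured, and its part in the size of the fold changes was not tested.

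The genes next to the members on the chromosome moved in both directions. Of 20 neighbours, 15 were tested, 4 were higher and 2 lower, with a median log2 fold change of -0.05, where 13.1% and 19.6% of all tested genes were higher and lower. With no filter on low counts, 8 neighbours were called in either direction. *Cdk2*, 1206 bases from *Pmel*, was at 681 ± 30.8 CPM in B16 (SD, n = 3) and at 31.3 to 87.7 CPM elsewhere. *Shroom2*, 12434 bases from *Gpr143*, had a log2 fold change of 3.44 ± 0.37. *Gm10863*, 1575 bases from *Sox10*, had 3.37 ± 0.36 at only 2.43 ± 0.51 CPM, and *Amacr*, 4096 bases from *Slc45a2*, had 1.31 ± 0.11 (adjusted p = 2.7e-06 and 1.6e-07, edgeR). *Lurap1l* beside *Tyrp1* (-2.32 ± 0.21) and *Frmd4b* beside *Mitf* (-1.31 ± 0.34) were lower. No tested neighbour was higher at the loci of the other 6 members.

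The genes whose pattern over the 15 tumors was most like the mean of the 10 members on the log2(CPM + 1) scale were *Lmx1b*, *Syt4*, *Tspan10*, *Gpr37*, *Syt9*, *Trpm1*, *Gjb2*, *Dcdc2a*, *Ankfn1* and *Gm829*, with Pearson correlations of 0.998 to 0.999. The correlation rests on the gap between B16 and the rest and is given as a description. *Tspan10* (995 ± 182 CPM in B16), *Syt4* (961 ± 151) and *Trpm1* (895 ± 185) were the most abundant of them. Their median level in the 12 other tumors was 0.0701%, 0.0624% and 0.0637% of the B16 mean, while *Lmx1b* and *Gjb2* were at 0.411% and 0.355%, beside 0.0541% to 0.0742% for the 6 pigment genes grouped above.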

How the data were processed

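The authors aligned reads to mm10 with STAR (2.5.0c) and counted them per RefSeq transcript with HOMER. The deposited tumor table holds expected counts in steps of 0.5 from both strands, which were rounded. The deposited CAF table holds RPKM values computed by the authors. Tables of 15 tumors and 8 CAF libraries were used, and 5 columns belonging to no listed sample were left out. Of 40458 transcripts, 2 name no gene and hold 2.08e-05% of counts. Each symbol kept its transcript with the largest mean. Members and gene lists were chosen with earlier results of these data known. The genes named from each list are up to 5 of the largest and 3 of the smallest changes among those called in B16 with at least 5 CPM in a model, together with ligands, receptors, relatives of *Mitf* and markers fixed for their role, and the flanking genes that were called. *Csf1r* and the 6-gene group were chosen after their values were seen.

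Tumors were tested with edgeR (4.0.16, TMM, filterByExpr, quasi-likelihood) in 1 fit over 5 models, which had a common dispersion of 0.0559. CAFs were tested with limma (3.58.1, trend) on log2(RPKM + 1) for genes with at least 1 RPKM in 2 libraries. Differences on that scale understate changes of low genes. The Benjamini-Hochberg adjustment covered all tested genes. Calls used adjusted p under 0.05, and also a log2 fold change of at least 1 for B16 against the other models and for the gene lists. CAF reads were recovered from the steps of the RPKM values. Intervals are exact Poisson at 95% and cover counting error only, as does the limit of 3 counts. Alternatives were DESeq2 (1.42.0), no filter, other scalings, other pseudocounts, a replicate block and leaving out each library. Scripts were tested on simulated data. Promoter windows are from RefSeq (GRCm38.p6). R 4.3.3, Python 3.11.15 and scipy 1.17.1 were used.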

Additional observations from a re-analysis of the deposited data

How the results depend on the processing

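The count of members higher in B16 was 10 of 10 under every alternative run. Counts of members that differed among the other models depended most on single libraries: the test over those 4 models called 2 members, and 2 to 7 when 1 tumor was left out, and the comparisons of each of these models with the other 3 gave 4 calls, 3 to 9 when 1 tumor was left out and 7 with DESeq2. The highest counts came without MC38 replicate 2, and 7 of these calls were made without LL2 replicate 2. Of all tested genes, the test over the 4 models called 83.0%, and 79.7% without MC38 replicate 2. Each comparison of 1 model called 37.9% to 57.5% of all tested genes without MC38 replicate 2. This share was 30.3% to 58.1% without LL2 replicate 2 and 40.7% to 59.8% with DESeq2. With no filter on low values, 3 members differed among the CAF models and the model comparisons gave 9 calls, in place of 1 and 4, where 49.5% of all genes differed and 29.1% of all model comparisons were called. The cause was not tested in either case, apart from the 9 members tested in place of 1 with no filter. Replicate numbers did not pair the tumors: the correlation of deviations for tumors with the same number ran from -0.165 to 0.263 (median 0.03), and for tumors with different numbers from -0.322 to 0.343. With a replicate block the counts stayed at 10 members differing over 5 models, 10 higher in B16, 38 pathway genes, 6 flanking genes, 2 members over 4 models and 4 model calls. No paired analysis was possible because the CAF columns carry no replicate numbers. The *Mitf* transcript difference was 0.15 with the middle transcript NM_001178049 in place of the long one (exact permutation p = 0.0044), and 0.21 without each B16 tumor (p = 0.022, the smallest that 2 against 12 allow), both alternatives chosen after seeing the data. All B16 ratios of short to long transcript lay above those of the 12 others, so leaving out 1 B16 tumor could give no other p. Depth limits *Gpr143* and *Oca2* outside B16 and the 7 members with few or no reads in CAFs.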
